A study of Homo sapiens with 12 samples.

Results

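The 10 genes described here encode the Rel family subunits of the transcription factor NF-κB (NFKB1, NFKB2, RELA, RELB, REL) and 5 members of the IκB family that bind them (NFKBIA, NFKBIB, NFKBIE, NFKBIZ, BCL3). They were picked by symbol from 17958 genes measured on Affymetrix arrays. Each of the 10 has 1 probe set that carries its symbol alone, and that probe set was used; gene positions below are RefSeq's on GRCh38.p14. BT549 is a triple-negative breast cancer cell line of mesenchymal character. All cells carried siRNA for 72 hours, either a control siRNA or a pool directed at c-Jun, a subunit of the transcription factor AP-1. TNFα, the cytokine tumour necrosis factor alpha, or its vehicle was then added for 6 hours. The groups were control siRNA with vehicle, control siRNA with TNFα, c-Jun siRNA with vehicle and c-Jun siRNA with TNFα, with 3 arrays in each. The design asks how far the TNFα response of these cells changes when c-Jun is depleted.

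In resting cells, NF-κB dimers are held in the cytoplasm by the classical IκB proteins IκBα (NFKBIA), IκBβ (NFKBIB) and IκBε (NFKBIE). TNFα binds its receptor and activates the IκB kinase complex, the classical IκBs are phosphorylated and degraded, and the freed dimers enter the nucleus. Several genes of the system are themselves NF-κB targets, so that new IκBα ends the signal and new p105 and p100, the precursors made by NFKB1 and NFKB2, retain Rel subunits. The atypical members IκBζ (NFKBIZ) and BCL3 act in the nucleus, mostly with p50 or p52 homodimers.

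The deposited values were used as log2 expression per gene, and a difference of 1 on this scale is a doubling. Array medians lay between 5.62 and 5.68, and the members' means over 12 arrays ran from 7.96 for REL to 11.36 for NFKBIA, brighter than 60.3% and 96.5% of genes. JUN, the targeted gene, read 10.36, 10.35 and 10.36 with control siRNA and vehicle and 9.82, 9.85 and 9.81 with c-Jun siRNA and vehicle, so that no array of the second group reached the first. Its difference was -0.52 ± 0.032 (SE) with vehicle and -0.71 ± 0.032 with TNFα, and with c-Jun siRNA and TNFα it stood at 10.36 ± 0.032 (SD, n = 3), which differed from control siRNA with vehicle by 0.010 (95% interval -0.057 to 0.077). The mesenchymal markers VIM (12.66), CD44 (12.73) and FN1 (11.40) were bright, and the epithelial and receptor genes CDH1 (4.87), EPCAM (4.20), ESR1 (4.38) and PGR (3.72) lay below the array medians. ERBB2 (8.81) and GATA3 (8.46), listed as low markers for this line, lay above them. Of 5 measured leukocyte markers, PTPRC (3.81), CD3E (3.97), CD14 (4.73) and ITGAM (5.05) lay below the medians and CD68 (9.58) above. Of 4 endothelial markers, PECAM1 (4.67), CDH5 (4.34) and KDR (3.80) lay below and TEK (6.30) above. Some of these moved with the treatments. TEK rose by 0.93 with c-Jun siRNA and vehicle (adjusted p = 1.68e-08), and ITGAM rose by 0.78 with TNFα and control siRNA (adjusted p = 1.92e-06). The summed unlogged level of the endothelial markers was 111 to 118 units in control cells with vehicle, 125 with TNFα, 161 to 167 with c-Jun siRNA and vehicle and 157 to 170 with both. That of the leukocyte markers was 799 to 845, 845 to 883, 856 to 892 and 868 to 893 in the same order. With c-Jun siRNA and vehicle, TEK was the only endothelial marker called, and PECAM1 (-0.0305), CDH5 (-0.090) and KDR (0.057) were not. Of the leukocyte markers only CD68, the brightest, was called there (0.11). The part of these markers in the members' changes was not tested. The labels do not say that arrays of a group came from separate cultures, so the p-values speak only of the variation among these arrays. In RNA from a whole culture, fewer expressing cells and less RNA per cell cannot be told apart.

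Promoter windows of 250 bases before to 50 after each annotated transcription start were present for 8 of the 10 genes, in 14 windows (RefSeq, GRCh38.p14). RELB and NFKBIE were not in the table. The windows were searched on both strands for the κB consensus (GGG, a purine, any base, A or T, a pair of pyrimidines and CC), for the AP-1 motif TGANTCA and for the cAMP response element TGACGTCA. The κB consensus occurred in 7 of the 8 genes, in 9 windows, against 7.09% of 27305 genes and 5.91% of 35116 windows in the whole table. For 6 of the 7 genes, the first match of the first window that holds one is shown, because Rel proteins bind this class of sequence. The match of BCL3, which lies in the transcribed part, and further matches are given by position only. Each is 30 bases, 5′ to 3′ on the strand of the gene, with bases that lie in a consensus match in capitals, overlapping matches merged. They lie in NFKB1 (chr4:102501300-102501329, + strand), NFKB2 (chr10:102394462-102394491, +, before its second listed start), REL (chr2:60881518-60881547, +), NFKBIA (chr14:35404811-35404840, -), NFKBIB (chr19:38899932-38899961, +, before its second listed start) and NFKBIZ (chr3:101827757-101827786, +).
NFKB1: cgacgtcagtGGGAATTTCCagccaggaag
NFKB2: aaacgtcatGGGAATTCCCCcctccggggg
REL: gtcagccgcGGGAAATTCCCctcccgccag
NFKBIA: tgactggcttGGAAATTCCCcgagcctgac
NFKBIB: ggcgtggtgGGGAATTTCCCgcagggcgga
NFKBIZ: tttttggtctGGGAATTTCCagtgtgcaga

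The matched bases of NFKB1 and NFKBIZ are the same 10 letters, and those of NFKBIA are their reverse complement. The whole 130 bases upstream of the NFKBIA start (chr14:35404750-35404879, - strand) hold 1 match, at positions -81 to -72 counted from the start base as 0, and neither of the other motifs.
NFKBIA, 130 bases: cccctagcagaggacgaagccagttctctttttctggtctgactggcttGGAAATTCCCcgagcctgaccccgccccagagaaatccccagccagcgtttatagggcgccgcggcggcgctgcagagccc

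The match of NFKB1 lay at -49 to -40, those of REL at -47 to -37 and that of BCL3 just after its start, at 2 to 11. NFKB2 had matches before 2 of its 3 starts, at -107 to -97 and -78 to -69 before the second and at -176 to -167 and -21 to -12 before the third. The second NFKBIZ window held a match at -239 to -230. The AP-1 motif occurred in 1 of the 8 genes, NFKBIB, as TGAATCA at -47 to -41, against 9.37% of genes in the table. The cAMP response element occurred in 0 of the 8, against 2.25% of genes. Neither RELA window held any of these motifs. A match describes letters in these windows and not a bound site.

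**Figure D1:**
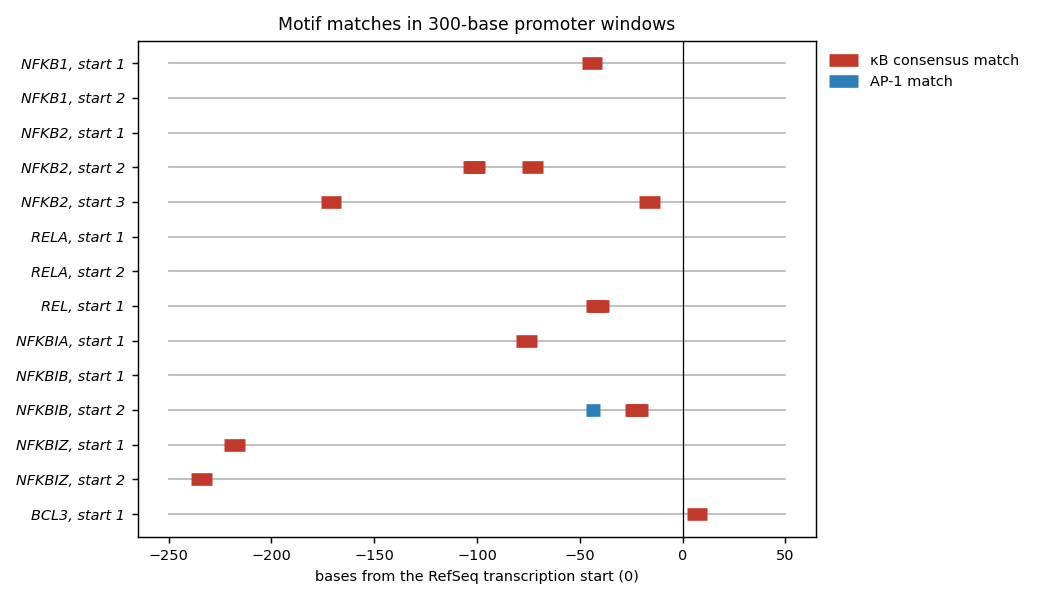
Positions of κB consensus matches (red) and of the AP-1 match (blue) in the promoter windows of 8 genes, in bases from each RefSeq start (0), with 1 line per window. The 9 windows with a κB match belong to 7 genes, and the single AP-1 match lies in a window of NFKBIB.

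TNFα raised every one of the 10 genes in cells with control siRNA, and all of them again in cells with c-Jun siRNA. With control siRNA the rises ran from 1.38-fold for RELA to 8.58-fold for NFKBIA. Calls here and below are at an adjusted p under 0.05 in limma, with Benjamini-Hochberg adjustment over all 17958 genes. Among all genes, 13.8% were called higher and 21.9% lower with TNFα under control siRNA (35.7% in either direction), and 11.3% higher and 18.3% lower under c-Jun siRNA (29.6%). The members' median change was 1.82 log2 units against -0.023 over all genes with control siRNA, and 1.26 against -0.016 with c-Jun siRNA. In both settings the arrays with TNFα and those with vehicle did not overlap for any of the 10, as was so for 45.3% of all genes with control siRNA and 38.9% with c-Jun siRNA. With vehicle in place of TNFα, c-Jun siRNA raised 6 of them and lowered 1, where 14.4% of all genes were called higher and 14.5% lower.

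**Figure D2:**
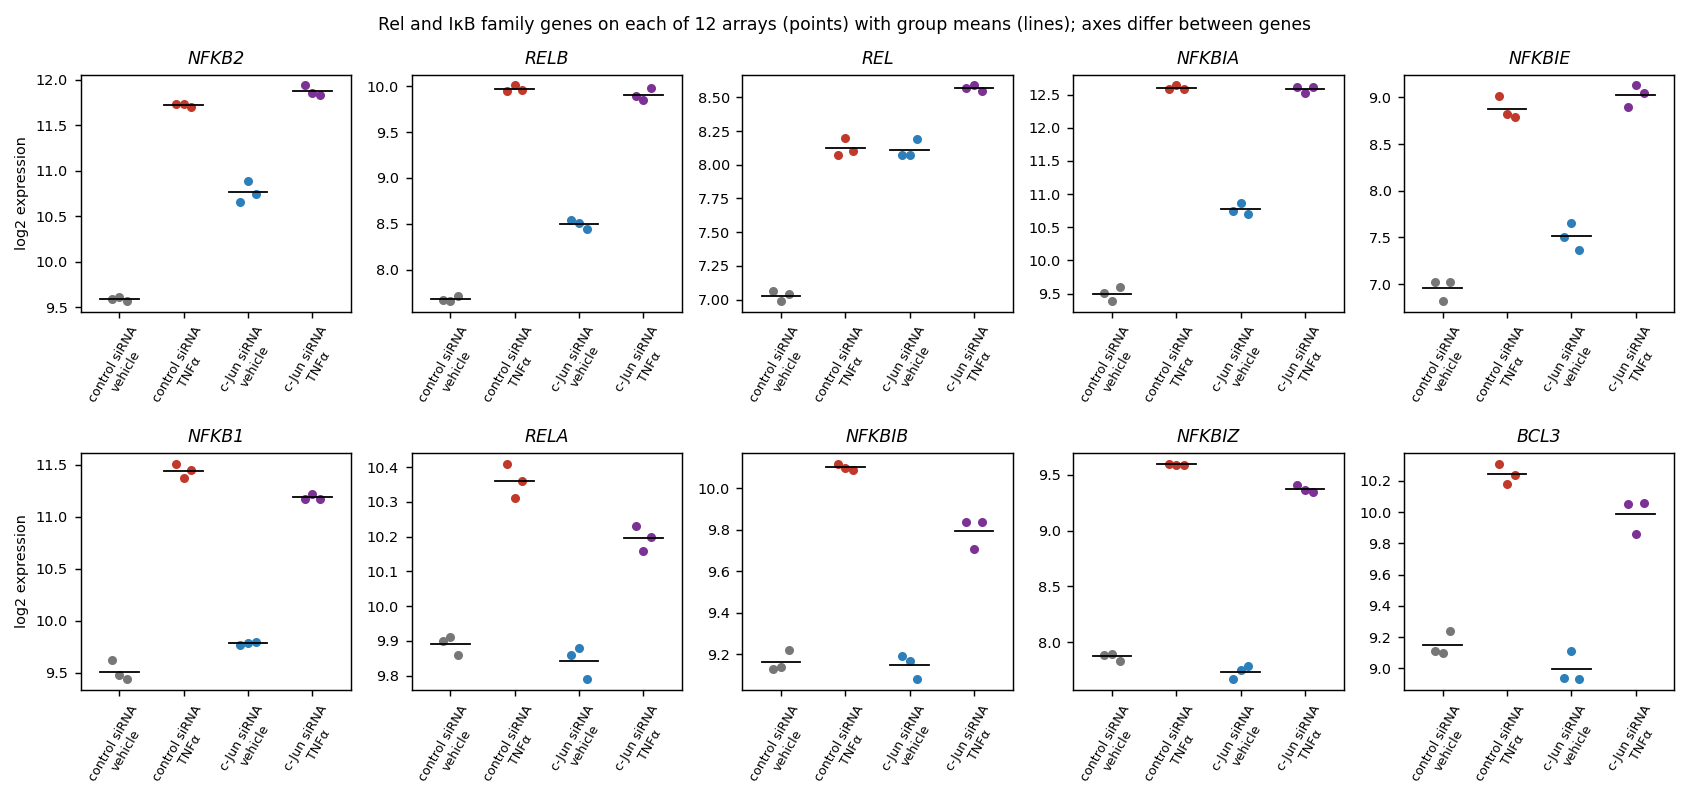
Log2 expression of the 10 genes on each of 12 arrays (points) with the mean of each group of 3 (lines); vertical axes differ between genes. The upper row holds genes whose arrays with c-Jun siRNA and vehicle lie well above those with control siRNA and vehicle, and the lower row holds NFKB1, with a small difference, and those without a rise.

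RELA (chr11:65653601-65663857) encodes p65, the main activating subunit freed by TNFα. It read 9.90, 9.91 and 9.86 in control cells with vehicle, 10.41, 10.31 and 10.36 in control cells with TNFα, 9.86, 9.88 and 9.79 with c-Jun siRNA and vehicle, and 10.23, 10.16 and 10.20 with both. The arrays with TNFα stood above all arrays with vehicle, and the vehicle groups overlapped. Its rise of 0.47 ± 0.037 (SE) with control siRNA was the smallest of the 10 (limma adjusted p = 6.75e-09). With TNFα, c-Jun siRNA lowered it (-0.16 ± 0.037, adjusted p = 0.00197), and with vehicle the difference was -0.050 (95% interval -0.13 to 0.027).

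RELB (chr19:45001464-45038192), the partner of p52 in the non-canonical pathway, read 7.67, 7.66 and 7.71 in control cells with vehicle and 9.95, 10.01 and 9.96 with TNFα. With c-Jun siRNA it read 8.54, 8.51 and 8.44 with vehicle and 9.89, 9.85 and 9.98 with TNFα. The 2 vehicle groups did not overlap, whereas the 2 TNFα groups did. c-Jun siRNA raised RELB 1.76-fold without TNFα (0.82 ± 0.042 log2, adjusted p = 5.47e-11). With TNFα the difference was -0.067 (95% interval -0.16 to 0.023, adjusted p = 0.293).

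REL (chr2:60881574-60931612) encodes c-Rel, an activating subunit best known from lymphocytes, and was the dimmest of the 10. It read 7.06, 6.99 and 7.04 in control cells with vehicle, 8.07, 8.20 and 8.10 in control cells with TNFα, 8.07, 8.07 and 8.19 with c-Jun siRNA and vehicle, and 8.57, 8.59 and 8.55 with both. The 2 middle groups overlapped throughout, and the arrays with both stood above all others. c-Jun siRNA without TNFα and TNFα with control siRNA gave rises of 1.08 and 1.10, each ± 0.052, both taken against the same 3 control arrays. Compared directly, c-Jun siRNA with vehicle differed from control siRNA with TNFα by -0.014 (95% interval -0.12 to 0.095, adjusted p = 0.879). REL is the only member for which these 2 groups were not called different. 9 of the 10 were lower with c-Jun siRNA and vehicle, where 16.6% of all genes were called lower (38.9% in either direction). With TNFα, REL stayed higher under c-Jun siRNA (0.44 ± 0.052, adjusted p = 2.58e-06).

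NFKB1 (chr4:102501359-102617302) encodes p105, which is processed to p50. It read 9.62, 9.48 and 9.44 in control cells with vehicle, 11.51, 11.37 and 11.45 with TNFα, 9.77, 9.79 and 9.80 with c-Jun siRNA and vehicle, and 11.17, 11.22 and 11.17 with both. None of the 4 groups overlapped. c-Jun siRNA raised it with vehicle (0.27 ± 0.044, adjusted p = 8.24e-05) and lowered it with TNFα (-0.26 ± 0.044, adjusted p = 0.000127).

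NFKB2 (chr10:102394110-102402529) encodes p100, which is processed to p52. It read 9.59, 9.61 and 9.57 in control cells with vehicle, 11.73, 11.73 and 11.70 with TNFα, 10.66, 10.89 and 10.75 with c-Jun siRNA and vehicle, and 11.94, 11.86 and 11.83 with both. Again no group overlapped another. c-Jun siRNA raised it 2.26-fold with vehicle (1.18 ± 0.045 log2, adjusted p = 7.41e-13). With TNFα the difference was 0.16 ± 0.045 (adjusted p = 0.0124). That smaller call was lost in 6 of 22 alternatives (adjusted p 0.00489 to 0.302), among them the fits without c-Jun siRNA TNFα replicate 1 (0.12, adjusted p = 0.0732), with a floor on low values (adjusted p = 0.0534) and with no mean-variance trend (adjusted p = 0.0526).

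NFKBIA (chr14:35401513-35404749), whose product is the fast feedback inhibitor, gave the largest response. It read 9.51, 9.39 and 9.60 in control cells with vehicle, 12.58, 12.64 and 12.58 with TNFα, 10.75, 10.86 and 10.70 with c-Jun siRNA and vehicle, and 12.62, 12.52 and 12.62 with both. The TNFα groups overlapped and the vehicle groups lay apart. c-Jun siRNA raised it 2.41-fold with vehicle (1.27 ± 0.048 log2, adjusted p = 7.12e-13), and with TNFα the difference was -0.013 (95% interval -0.11 to 0.088).

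NFKBIB (chr19:38899666-38908889), whose product is a slower classical inhibitor, read 9.13, 9.14 and 9.22 in control cells with vehicle, 10.12, 10.10 and 10.09 with TNFα, 9.19, 9.17 and 9.08 with c-Jun siRNA and vehicle, and 9.84, 9.71 and 9.84 with both. The vehicle groups overlapped and the TNFα groups did not. With TNFα, c-Jun siRNA lowered it (-0.31 ± 0.043, adjusted p = 1.99e-05), the largest fall among the 10, and with vehicle the difference was -0.019 (95% interval -0.11 to 0.073).

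NFKBIE (chr6:44258166-44265551), the third classical inhibitor gene, had the widest standard errors of the 10. It read 7.02, 6.82 and 7.02 in control cells with vehicle, 9.02, 8.82 and 8.79 with TNFα, 7.51, 7.66 and 7.37 with c-Jun siRNA and vehicle, and 8.90, 9.13 and 9.05 with both. The 2 TNFα groups overlapped and the vehicle groups did not. c-Jun siRNA raised it 1.47-fold with vehicle (0.56 ± 0.082 log2, adjusted p = 3.03e-05). With TNFα the difference was 0.15 (95% interval -0.020 to 0.32, adjusted p = 0.197).

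NFKBIZ (chr3:101827990-101861022), the inducible nuclear IκB, read 7.89, 7.90 and 7.83 in control cells with vehicle, 9.60, 9.59 and 9.59 with TNFα, 7.67, 7.75 and 7.79 with c-Jun siRNA and vehicle, and 9.41, 9.36 and 9.35 with both. No groups overlapped. c-Jun siRNA lowered it with TNFα (-0.22 ± 0.043, adjusted p = 0.000713). The fall with vehicle, -0.14 ± 0.043 (adjusted p = 0.0214), was lost in 7 of 21 alternatives (adjusted p 0.00923 to 0.493), among them leaving out control vehicle replicate 1 (0.0621) or 2 (0.0731) or c-Jun siRNA vehicle replicate 1 (0.119).

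BCL3 (chr19:44747705-44760044), a nuclear IκB that can act as a coactivator, read 9.11, 9.10 and 9.24 in control cells with vehicle, 10.31, 10.18 and 10.24 with TNFα, 8.94, 9.11 and 8.93 with c-Jun siRNA and vehicle, and 10.05, 9.86 and 10.06 with both. Vehicle groups overlapped, with 1 array of c-Jun siRNA at the level of the controls. c-Jun siRNA lowered it with TNFα (-0.25 ± 0.059, adjusted p = 0.00287). The difference with vehicle, -0.16 ± 0.059, was not called (adjusted p = 0.0547) and was called in 6 of 21 alternatives (0.012 to 0.234), among them the one without c-Jun siRNA vehicle replicate 2 (0.012).

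Side by side, c-Jun siRNA with vehicle raised NFKBIA, NFKB2, REL, RELB, NFKBIE and NFKB1, lowered NFKBIZ, and gave no call for RELA, NFKBIB and BCL3. Among all genes, 14.4% were called higher and 14.5% lower (28.9% in either direction). The members' median was 0.42 against -0.0073 over all genes. With TNFα the members divided otherwise. REL and NFKB2 were higher, NFKB1, RELA, NFKBIB, NFKBIZ and BCL3 were lower, and RELB, NFKBIA and NFKBIE were not called. There 14.1% of all genes were called higher and 14.4% lower (28.5%), and the members' median was -0.12 against 0.0011. The 2 comparisons share no arrays.

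**Figure D3:**
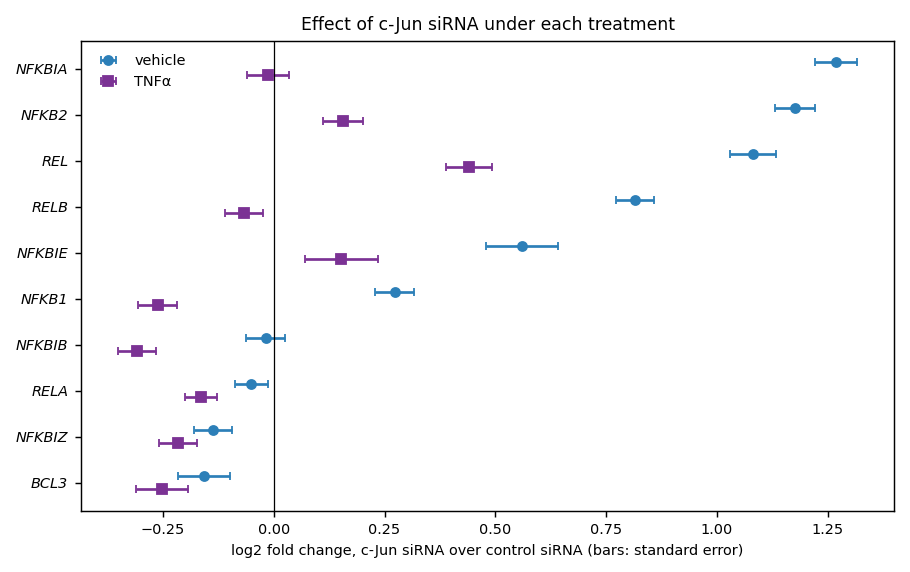
Log2 fold change of c-Jun siRNA over control siRNA with vehicle (blue circles) and with TNFα (purple squares), ± SE from the fit, ordered by the value with vehicle. The value with TNFα lies to the left of that with vehicle for all 10. The 2 have opposite signs for NFKB1, with both called, and for RELB and NFKBIA, whose values with TNFα lie near 0 and were not called.

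The names of the arrays carry a position code, read here as a plate column, which is an inference. All 3 arrays of c-Jun siRNA with vehicle lay in column 5 with 1 control vehicle array. With a single control array, which is assumed to vary like the other group, a call there rests on that array. Within column 5 all 10 members kept their direction, and NFKBIE at 0.50 and NFKBIZ at -0.099 were no longer called. For c-Jun siRNA with TNFα, columns 7 and 9 each hold both groups, again with a single array in one of them. In column 7 all 10 members kept their direction, and in column 9, 8 of 10 did. Calls were lost there among all genes as well as among the members. Their loss therefore cannot show whether the members' differences persist within a column. For TNFα with control siRNA, column 7 alone called all 10, where 5169 of all 17958 genes were called. No column holds both groups of TNFα with c-Jun siRNA, so column and treatment cannot be told apart there except in a fit with the column as a term, which still called all 10.

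The TNFα response itself was smaller with c-Jun siRNA in 7 of the 10 genes on the log2 scale, as tested by the interaction (the response with c-Jun siRNA minus that with control siRNA). None was larger. Among all genes 3.59% had a smaller and 1.88% a larger response (5.47% in all), and the members' median difference was -0.47 against 0.0066. The response of NFKBIA was 3.10 with control siRNA and 1.82 with c-Jun siRNA, a difference of -1.28 ± 0.068 (adjusted p = 1.05e-09). NFKB2 went from 2.13 to 1.11 (-1.02 ± 0.064, adjusted p = 1.02e-08) and RELB from 2.29 to 1.41 (-0.88 ± 0.06, adjusted p = 3.02e-08). These 3 genes, a feedback inhibitor and the subunits of the non-canonical dimer, had the largest interactions.

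REL went from 1.10 to 0.45, the smallest remaining share at 41.5% of the control log2 response (-0.64 ± 0.073, adjusted p = 1.56e-05). NFKB1 kept 72.4% (-0.53 ± 0.062, adjusted p = 1.74e-05) and NFKBIB 69.2% (-0.29 ± 0.061, adjusted p = 0.00656). The call of NFKBIB was lost with the position column as a fixed block (-0.26, adjusted p = 0.0596). NFKBIE kept 78.8% (-0.41 ± 0.12, adjusted p = 0.0474), and its call was lost in 18 of 25 alternatives (adjusted p 0.0184 to 0.318), among them each omission of a single array except c-Jun siRNA vehicle replicate 3 and c-Jun siRNA TNFα replicate 2.

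The nuclear IκB genes NFKBIZ and BCL3 kept 95.4% and 91.3% of their log2 responses. Their interactions were -0.079 (95% interval -0.21 to 0.049, adjusted p = 0.589) and -0.095 (95% interval -0.27 to 0.08, adjusted p = 0.648). RELA kept 75.7%, with an interaction of -0.11 (95% interval -0.22 to -0.0048, adjusted p = 0.274). The intervals of NFKBIZ and BCL3 extend to smaller and to larger responses with c-Jun siRNA. That of RELA lies wholly below 0, although it was not called after adjustment over all genes.

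**Figure D4:**
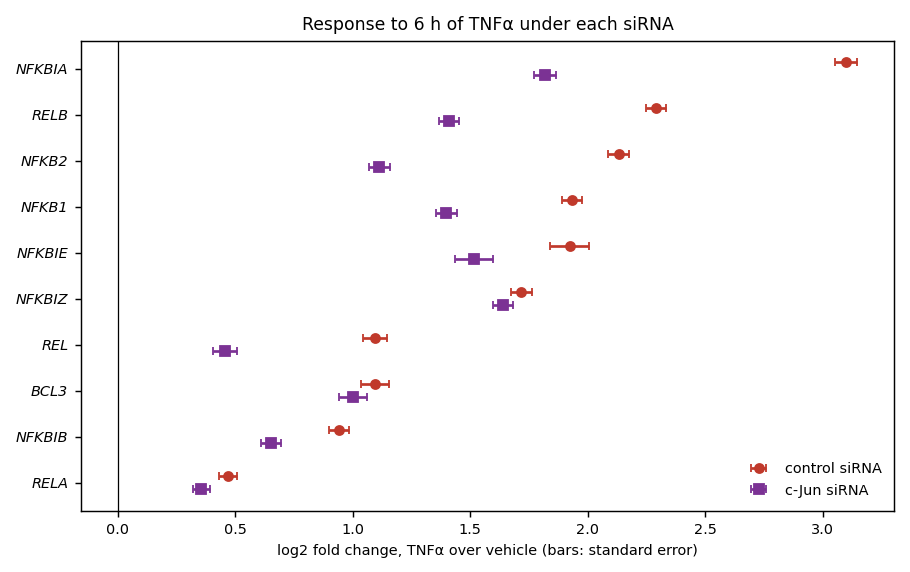
Log2 fold change of TNFα over vehicle with control siRNA (red circles) and with c-Jun siRNA (purple squares), ± SE from the fit, ordered by the response with control siRNA. NFKBIA falls from 3.10 to 1.82, whereas NFKBIZ and BCL3 have nearly coinciding points.

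A log2 response starts from the level with vehicle, and that level itself was higher with c-Jun siRNA in 6 of the genes. In a comparison chosen after seeing the data, the rise was taken on the unlogged scale as the difference of group means, with no test. NFKBIA then rose by 5482 units with control siRNA and 4406 with c-Jun siRNA, or 80.4%, where the log2 share was 58.6%. That difference was -1076 ± 186 units (SE). NFKBIE rose by 347 and 341 units, 98.0%, a difference of -6.86 ± 36.2, well within its error. NFKB2 stood at 77.6%, RELB at 74.9%, NFKB1 at 70.1%, RELA at 70.1%, REL at 68.7% and NFKBIB at 61.3%. NFKBIZ stood at 84.0%, with a difference of -85.9 ± 11.0 units that is wide of its error although its log2 interaction was not called. BCL3 stood at 79.1% (-135 ± 61.0). By share, NFKBIB kept the least and NFKBIE the most on this scale.

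In the order of the 4 group levels, control siRNA with vehicle and c-Jun siRNA with vehicle were the lowest pair by mean for all 10. All 10 were also called higher with c-Jun siRNA and TNFα than with control siRNA and vehicle, where 16.4% of all genes were (39.3% in either direction). Within position column 7, which holds 1 array of the first group, all 10 kept this direction, and RELA at 0.25 was no longer called. A call there rests on that array. Neighbours in that order were not called different for RELA, NFKBIB and BCL3 (the 2 vehicle groups), for RELB, NFKBIA and NFKBIE (the 2 TNFα groups) and for REL (c-Jun siRNA with vehicle and control siRNA with TNFα). For NFKB1, NFKB2 and NFKBIZ all 3 neighbouring steps were called.

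The rest of the pathway was read from lists of genes that, like the members, were chosen with earlier results of these data known. Of 20 measured genes for receptor signalling and IκB kinases, 14 were higher and 3 lower with TNFα and control siRNA (13.8% and 21.9% of all genes), at a median of 0.22 against -0.023 over all genes. With c-Jun siRNA 12 were higher and 2 lower (11.3% and 18.3% of all genes). The largest changes with control siRNA were in MAP3K8, a kinase bound by p105 (1.62), the ubiquitin ligase gene BIRC2 (0.99), TRAF3, which holds back the non-canonical pathway (0.96), and the receptor TNFRSF1B (0.86). MAP3K8 and TRAF3 had smaller responses with c-Jun siRNA (interactions -0.59, adjusted p = 0.00193, and -0.52, adjusted p = 4.79e-05), and that of BIRC2 differed by 0.067 (adjusted p = 0.67). With vehicle c-Jun siRNA left 4 of the 20 higher and 4 lower, against 14.4% and 14.5% of all genes, led by TNFRSF1B (-0.61), TRAF3 (0.38), the adaptor TRAF5 (0.35) and TAB2 (-0.26), part of the TAK1 complex.

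Of 22 genes that restrain the signal or turn over IκB, 10 were higher and 2 lower with TNFα and control siRNA (13.8% and 21.9% of all genes), at a median of 0.073. The largest rises were in the deubiquitinase genes TNFAIP3, encoding A20 (4.37), and CYLD (2.31), and in the A20-binding genes TNIP3 (1.70, a dim gene with a mean of 4.95 over 12 arrays) and TNIP1 (1.48). With c-Jun siRNA 6 were higher and 3 lower (11.3% and 18.3%). Responses of TNFAIP3 (-1.13, adjusted p = 3.90e-08), TNIP3 (-1.03, adjusted p = 6.75e-05) and CYLD (-0.69, adjusted p = 2.04e-05) were smaller with c-Jun siRNA, whereas TNIP1 differed by 0.076 (adjusted p = 0.777). c-Jun siRNA with vehicle raised 7 of the 22 and lowered 2 (14.4% and 14.5% of all genes), with TNFAIP3 at 0.89, CYLD at 0.67, TNIP1 at 0.42 and NKIRAS2 at -0.34.

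Among 11 measured genes of nuclear import and cofactors, 5 fell with TNFα under control siRNA (21.9% of all genes), with a median of -0.062 and the acetyltransferase gene KAT2B at -0.88, HDAC1 at -0.32, AKIRIN2 at -0.23 and HDAC3 at -0.16. With vehicle, c-Jun siRNA raised 1 and lowered 4 of the 11 (14.4% and 14.5% of all genes), led by AKIRIN2 (-0.35). Of 9 measured reference genes, 3 were lower with TNFα, against 21.9% of all genes (TFRC -0.33, GUSB -0.22, PGK1 -0.18). c-Jun siRNA with vehicle raised 3 and lowered 2 of the 9, against 14.4% and 14.5%, with TBP at 0.29.

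IKBKE and TAB3, chosen after their values were seen, complete the interaction calls of the 3 pathway lists. TAB3 had a smaller response with c-Jun siRNA (-0.24, adjusted p = 0.00236). IKBKE, encoding an IκB kinase-related kinase, was the one gene of the lists with a larger one. It rose by 0.52 with TNFα under control siRNA and by 1.24 under c-Jun siRNA, a difference of 0.72 (adjusted p = 1.21e-06). With vehicle, c-Jun siRNA changed IKBKE by -0.19 (adjusted p = 0.00481).

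**Figure D5:**
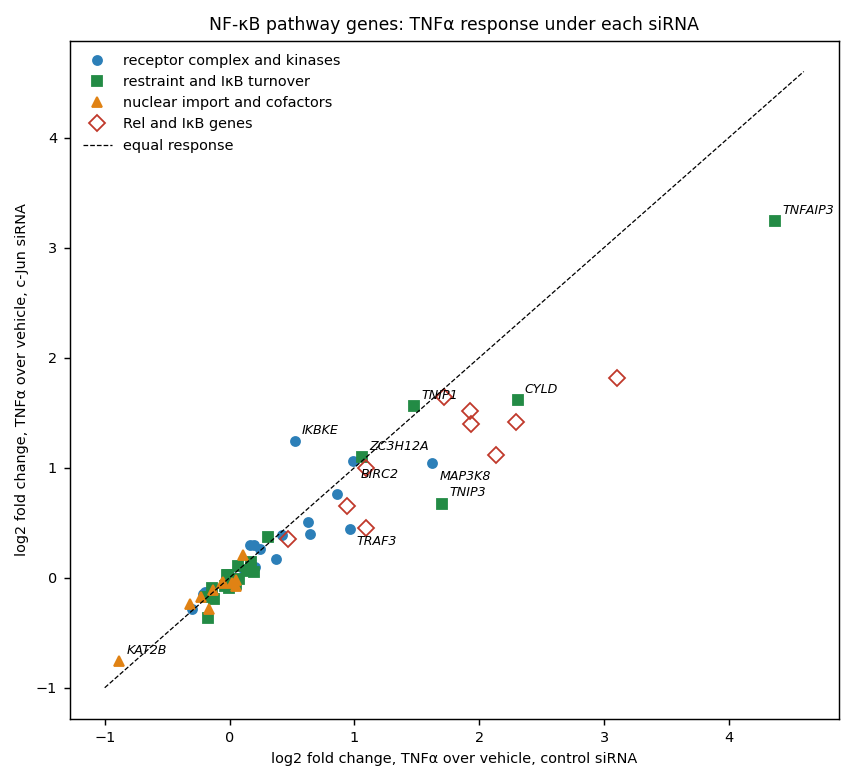
Log2 fold change of TNFα over vehicle with control siRNA (horizontal) and with c-Jun siRNA (vertical) for genes of receptor signalling (circles), restraint (squares) and nuclear cofactors (triangles) and for the 10 Rel and IκB genes (open diamonds); the dashed line marks equal responses. TNFAIP3, CYLD, MAP3K8 and all 10 diamonds lie below the line, those of NFKBIZ and BCL3 close to it, and IKBKE lies above it.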

How the data were processed

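Total RNA was hybridised to 12 arrays, 3 in each of 4 groups taken from the sample titles. Expression values were deposited by the authors as log2, an inference from their range of 2.27 to 14.0; Expression Console 1.1 and PLIER are named, without roles, in the submitters' processing notes. They were not normalised further (quartiles differ between arrays by at most 0.061). Of 33297 probe sets, 19181 carried 1 symbol, 2055 several and 12061 none; the brightest of each gene by 12-array mean gave 17958 genes. limma 3.58.1 in R 4.3.3 fitted 1 mean per group to all 12 arrays with a mean-variance trend (8 residual and 9.29 prior degrees of freedom). Tests are two-sided, adjusted over all genes, and called at 0.05. Errors of means are SDs and of fold changes SEs. Named genes are the members, JUN, up to 4 called genes per list with the largest change for TNFα with control siRNA and for c-Jun siRNA with vehicle, and the 2 genes most like each member; others are marked in the text. Members and lists were chosen with earlier results of these data known. The fit was tested on simulated data. The number of arrays limits precision. Alternatives covered normalisation, dim genes, variance models, blocks, position columns and each array left out.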

Additional observations from a re-analysis of the deposited data

Results flagged for a closer look

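The TNFα response with c-Jun siRNA differed from that with control siRNA, by the limma interaction test adjusted over all genes, in 7 of the 10 genes. Among all genes 5.47% were called (3.59% with a smaller and 1.88% with a larger response). The differences, as log2 units of the response with c-Jun siRNA minus that with control siRNA, were -1.28 for NFKBIA, -1.02 for NFKB2, -0.88 for RELB, -0.64 for REL, -0.53 for NFKB1, -0.41 for NFKBIE and -0.29 for NFKBIB. c-Jun siRNA with vehicle lay in 1 position column and c-Jun siRNA with TNFα in others, and the part of the column in these differences was not tested within a column. With the column as a fixed block, 5 of the 7 were called, without NFKBIE and NFKBIB, where 531 of all 17958 genes were called.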

How the results depend on the processing

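All 10 TNFα rises were called under each of 21 alternatives with control siRNA and 20 with c-Jun siRNA. With the position column as a fixed block, 2376 genes were called for TNFα with c-Jun siRNA (5320 without it), 3448 for c-Jun siRNA with vehicle (5183), 4176 for c-Jun siRNA with vehicle against control siRNA with TNFα (6993) and 531 for the interaction (983; 553 at an adjusted p under 0.01). Within column 5, 2264 genes were called for c-Jun siRNA with vehicle. Within column 7, 930 were called for c-Jun siRNA with TNFα (5116), with 1 member, and 2596 for c-Jun siRNA with TNFα against control siRNA with vehicle (7056). Within column 9, limma called 0 genes and 0 members for c-Jun siRNA with TNFα, while 4156 genes had an unadjusted p under 0.05. Values near 0 that changed sign, none of them called, were NFKBIA for c-Jun siRNA with TNFα (0.010 with quantile normalisation, 0.0046 with centred arrays, 0.045 in column 9, and -0.032 to 0.021 with each array left out), NFKBIE there (-0.043 in column 9), NFKBIB for c-Jun siRNA with vehicle (-0.040 to 0.014 with each array left out) and REL for c-Jun siRNA with vehicle against control siRNA with TNFα (-0.054 to 0.025). Leaving out each array gave 6 to 8 members for c-Jun siRNA with vehicle, 6 to 7 with TNFα and 6 to 7 for the interaction. Among all genes the same fits called 4510 to 4751, 4440 to 4728 and 774 to 1009. Same-numbered arrays did not deviate together (correlations -0.059 to 0.088), which cannot show whether equal numbers mark samples handled together. A replicate block left 6 members in the interaction, ending only the call of NFKBIE (-0.41, limma adjusted p = 0.0591). There 937 of all genes were called. Averaging c-Jun siRNA TNFα replicates 1 and 3, which may be 1 sample, also left 6 members, among 867 genes called. It kept 10 members for TNFα with c-Jun siRNA, 7 for c-Jun siRNA with TNFα and 10 for c-Jun siRNA with TNFα against control siRNA with vehicle. In that order 4809, 4610 and 6565 of all genes were called. Taking every other probe set gave no further value, since each member has 1, and fitting only the compared groups does not apply to the interaction, which uses all 4.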

Other observations

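For each gene, the genes with the most similar profile were found by the root mean square difference between gene-centred log2 values over the 12 arrays, as a description with no test. Closest to NFKBIA, whose own root mean square deviation was 1.31, were NFE2L3 (difference 0.0996) and the antigen peptide transporter gene TAP1 (0.145). NFKB2 was closest to CCBE1 (0.112) and the tight junction gene CLDN1 (0.116), and RELB to VXN (0.09) and SERPINB8 (0.0982). REL was closest to ASS1, an enzyme of arginine synthesis (0.0858), and the cell cycle kinase gene CDK6 (0.104). NFKB1 was closest to PIK3CD (0.0855) and NLRC5 (0.101), RELA to CANT1 (0.044) and the prostaglandin receptor gene PTGER4 (0.0441), and NFKBIB to ZNF267 (0.0722) and SERPINE2 (0.0728). NFKBIE was closest to the immunoproteasome gene PSMB10 (0.126) and SQOR (0.136), NFKBIZ to PHLDA2 (0.12) and SP110 (0.127), and BCL3 to ZC3H12A (0.0901), an RNase gene of inflammation, and SLC25A28 (0.105). Among the 10 themselves, the closest pairs were NFKBIB with BCL3 (0.145), NFKB1 with NFKBIZ (0.155) and RELB with NFKBIE (0.172). The member closest to REL, NFKB2, lay at 0.442, against a root mean square deviation of REL itself of 0.568. For RELA the closest member, NFKBIB, lay at 0.203, against 0.217 for RELA itself.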
